A study of Mus musculus with 8 samples.

Results

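Transcripts of the YAP-TEAD pathway were examined in mouse kidney tubuloids after induction of a Cre recombinase that cuts the floxed Pkd2 gene. The 10 genes were the coactivators Yap1 and Wwtr1, the DNA-binding factors Tead1, Tead2, Tead3 and Tead4, and the target genes Ctgf, Cyr61, Ankrd1 and Amotl2. They were selected by symbol, and all 10 were found among the 24063 genes of the deposited tables. The current symbols of Ctgf and Cyr61 are Ccn2 and Ccn1.

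Tubuloids are tubule-like structures that form in Matrigel from kidney fragments. The labels gave the kidneys an age of postnatal day 7 to day 10, and the study's methods a window that opens earlier. All 8 libraries, controls included, had the genotype Pkd2fl/fl Pax8rtTA TetOCre mTmG. It combines floxed Pkd2 alleles, a tetracycline transactivator under the Pax8 promoter, a Cre that this transactivator switches on, and a membrane reporter that turns from red to green upon recombination. Doxycycline (DOX 9, 12, 19 and 21) or its vehicle dimethyl sulfoxide (DMSO 3, 5, 15 and 20) was given from day 3 for 3 days, and RNA was taken on day 7 of culture. The Pax8 promoter limits Cre to renal epithelium, so stromal cells keep Pkd2, and the study also saw unrecombined epithelial cells after doxycycline. Whether the 4 cultures of a group came from separate animals was not stated, so p-values measure the spread between these cultures.

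YAP, encoded by Yap1, and its relative TAZ, encoded by Wwtr1, are transcriptional coactivators that do not bind DNA themselves. They act through the TEAD factors, and kinases of the Hippo pathway keep them out of the nucleus by phosphorylation. Cell spreading, a stiff matrix and tension of the actin cytoskeleton favour their entry into the nucleus, where they switch on genes such as Ctgf and Cyr61. Their activity is set largely by where the proteins are, so mRNA levels of Yap1 and Wwtr1 do not measure it. In the kidney, YAP and TAZ have been studied in nephron formation, in fibrosis and in cystic disease.

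Summed transcript counts lay between 63922677 and 102716313 per library. Fewer genes were detected in DMSO 20 (13243) and DOX 19 (13599) than in the remaining 6 libraries (17054 to 17903). Pkd2, the targeted gene, had normalised counts (counts divided by a library size factor) of 6039, 7538, 6128 and 4813 in DMSO 15, 20, 3 and 5, and of 4136, 4624, 5952 and 5072 in DOX 9, 21, 19 and 12. These groups overlapped, with a log2 fold change of -0.31 (SE 0.215; adjusted p = 0.999 in DESeq2). Counts over the whole transcript do not isolate the floxed part of the gene. The study measured the protein of Pkd2, polycystin-2, by western blot, and reported less of it after doxycycline, though it remained detectable. As a check of the tissue, all 6 epithelial markers examined (Cdh1, Epcam, Krt8, Krt18, Pax8 and Tjp1) were present in every library, with a summed level of 472.4 to 1783 TPM, a measure of abundance scaled by transcript length and library. All 8 stromal markers were detected as well, with sums of 273.1 to 2674 TPM, although Dcn was at 0 in DMSO 20 and Lum at 0 in DOX 19. Of 5 endothelial markers, Pecam1, Cdh5, Kdr and Tie1 stayed below 1 TPM in every library and Emcn did not. Of 4 macrophage markers, Emr1 and Csf1r also stayed below 1 TPM, whereas Ptprc reached 22.3 TPM (DMSO 5) and Cd68 23.3 TPM (DMSO 20).

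The targets Ctgf and Cyr61 were on average the most abundant transcripts of the 10. On the TPM scale, which is per transcript length, and with 1 transcript taken for each gene, Ctgf averaged 276.8 ± 230.7 TPM and Cyr61 151.6 ± 119.4 TPM (SD, n = 8 libraries). Both encode secreted matricellular proteins of the CCN family. Ctgf stood at the 97.9th and Cyr61 at the 96.0th percentile of genes with a TPM above 0. Wwtr1 followed with 52.7 ± 14.9 TPM, ahead of Tead2 with 27.1 ± 5.07 TPM. Ankrd1, which encodes a stress-responsive ankyrin repeat protein, had 26.9 ± 13.3 TPM. Amotl2, which encodes an angiomotin-like junctional protein that can bind and restrain YAP, had 20.1 ± 11.9 TPM. Yap1 had 12.8 ± 4.22 TPM, Tead1 3.49 ± 1.49, Tead3 3.21 ± 1.31 and Tead4 0.928 ± 0.641 TPM. Ctgf exceeded Cyr61 in 8 of 8 libraries, Cyr61 exceeded Wwtr1 in 7, and Wwtr1 exceeded Tead2 in 8. The order of Tead2 and Ankrd1 held in only 3 of 8 libraries, and that of Tead1 and Tead3 likewise in 3, so neither pair could be ranked on this scale. Amotl2 exceeded Yap1 in 7 libraries, Yap1 exceeded Tead1 in 8 and Tead3 exceeded Tead4 in 8. With the TPM of all transcripts summed, in which shared reads appear once per isoform, Yap1 exceeded Amotl2 in 6 libraries and Tead2 exceeded Ankrd1 in 8. On that summed scale Wwtr1 (169.9 TPM) also exceeded Ctgf (146.1 TPM) and Cyr61 (112.0 TPM) in DOX 19. These orders therefore depend on how isoforms are taken.

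The comparison of DOX with DMSO asked which of these transcripts changed soon after Cre induction. None of the 10 genes passed the threshold, 1.5-fold or more at an adjusted p no higher than 0.05, in DESeq2 or in the quasi-likelihood test of edgeR. Across all genes DESeq2 called 25 of 17011 (0.147%), and edgeR called 0 of 15562 (0.0%). At an unadjusted p under 0.05 there were 0 of the 10 genes in either test, against 899 of 19268 genes in DESeq2 (4.67%) and 476 of 15562 in edgeR (3.06%). For none of the 10 did the DOX libraries all lie on one side of the DMSO libraries, which was the case for 465 of 15928 genes with a mean normalised count of at least 10 (2.92%). The adjusted p was 0.999 for each of the 10 in both tests. Of the 10 genes, 3 had higher and 7 had lower estimates with DOX, with a median log2 fold change of -0.30, against -0.06 over the 15928 genes with a mean normalised count of at least 10, 55.0% of which were lower. The 6 factors were evenly divided, with a median of 0.08, and the 4 targets were all lower, with a median of -0.78. Without DMSO 15 the 4 targets were divided as well, at -0.27 (Ctgf), -0.19 (Cyr61), 0.51 (Ankrd1) and 0.26 (Amotl2).

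**Figure D1:**
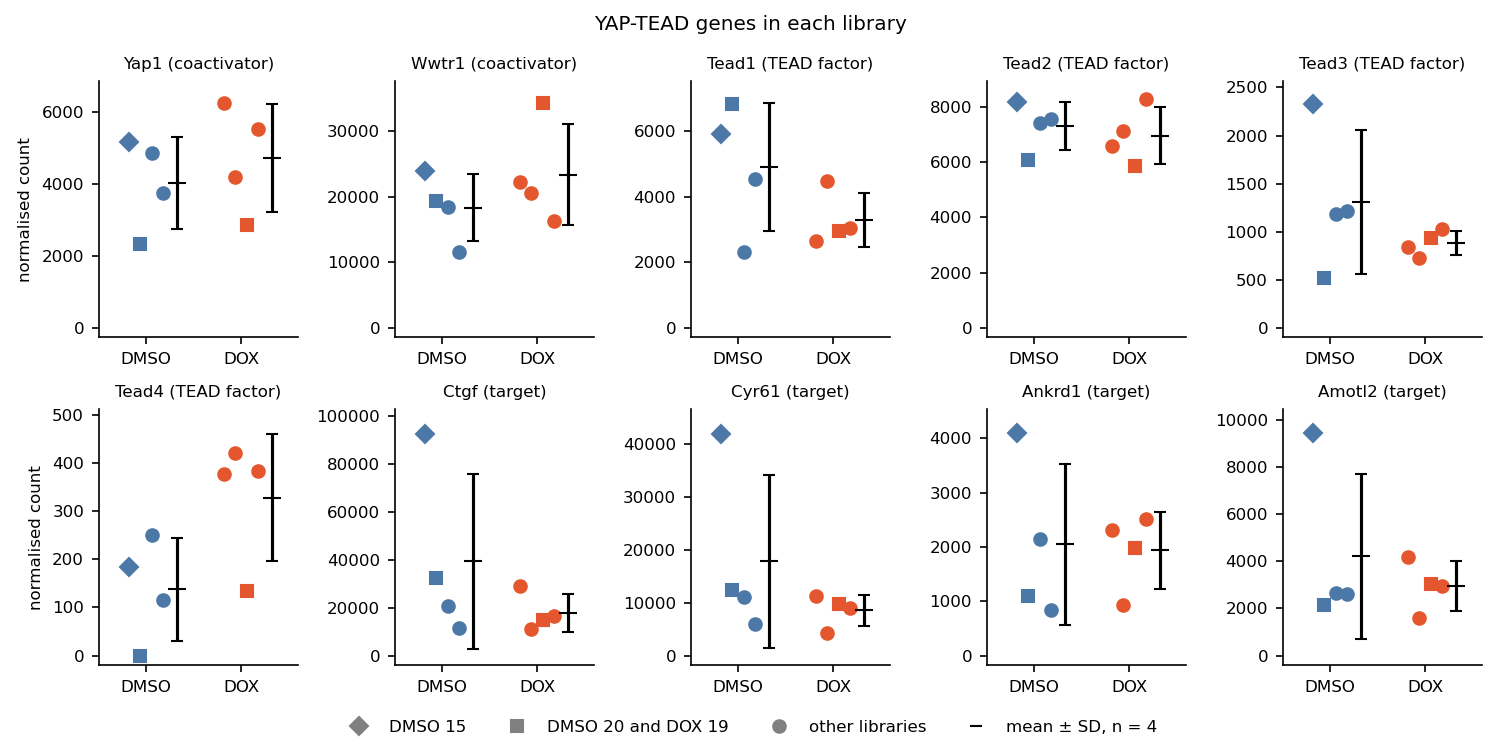
Normalised counts (vertical axes, linear) of the 10 genes in the 4 DMSO (blue) and 4 DOX (red) libraries, with the mean and SD of each group in black. Diamonds mark DMSO 15, which is the highest library for all 4 target genes, and squares mark DMSO 20 and DOX 19, the libraries with few detected genes.

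Ctgf (Entrez 14219, chromosome 10, 24595442 to 24598683, GRCm38.p6) gave the smallest p of the 10 genes. Its normalised counts were 92550, 32490, 20890 and 11430 in DMSO 15, 20, 3 and 5, and 29040, 10980, 15020 and 16390 in DOX 9, 21, 19 and 12. DMSO 15 stood 2.85-fold above the next library, DMSO 20, and the other DMSO libraries overlapped with the DOX libraries. The group means were 39340 ± 36510 and 17860 ± 7801 (SD, n = 4 each). DOX differed from DMSO by a log2 fold change of -1.14 (SE 0.642; unadjusted p = 0.0760 and adjusted p = 0.999 in DESeq2), with a 95% confidence interval from 0.19-fold to 1.09-fold. In an exact two-sided permutation test on log2 values, p was 0.314. Without DMSO 15 the log2 fold change was -0.27 (SE 0.477; adjusted p = 0.952 in DESeq2), with 32490, 20890 and 11430 against the same 4 DOX values. Leaving out any of the other 7 libraries gave -1.48 to -0.96. The unadjusted p was under 0.05 without DMSO 5 (0.0139), without DOX 9 (0.0293) and without DMSO 3 (0.0487), with adjusted p of 0.719, 0.974 and 0.959 in DESeq2.

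Cyr61 (Entrez 16007, chromosome 3, 145646971 to 145649985) had nearly the same profile. Its normalised counts were 41960, 12480, 11010 and 5912 in DMSO 15, 20, 3 and 5, and 11210, 4372, 9724 and 9060 in DOX 9, 21, 19 and 12. The value of DMSO 15 was 3.36-fold that of the next library, and DOX 21 was the lowest of all 8, as it was for Ctgf. The log2 fold change was -1.05 (SE 0.618; unadjusted p = 0.0879 and adjusted p = 0.999 in DESeq2), with an interval from 0.21-fold to 1.12-fold. Without DMSO 15 it was -0.19 (SE 0.424; adjusted p = 0.975 in DESeq2), and without DMSO 5 it was -1.34 (unadjusted p = 0.0199 and adjusted p = 0.825 in DESeq2).

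Amotl2 (Entrez 56332, chromosome 9, 102717091 to 102733418) had normalised counts of 9410, 2140, 2652 and 2605 in DMSO 15, 20, 3 and 5, and of 4157, 1602, 3050 and 2954 in DOX 9, 21, 19 and 12. DMSO 15 again led, 2.26-fold above DOX 9, and the 3 other DMSO libraries lay inside the DOX range. The log2 fold change of -0.51 (SE 0.563; adjusted p = 0.999 in DESeq2) turned to 0.26 (SE 0.363; adjusted p = 0.925 in DESeq2) without DMSO 15.

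Ankrd1 (Entrez 107765, chromosome 19, 36111965 to 36119844) had normalised counts of 4101, 1097, 2153 and 846.5 in DMSO 15, 20, 3 and 5, and of 2313, 926.1, 1985 and 2520 in DOX 9, 21, 19 and 12. DMSO 15 was highest and DMSO 5 lowest, so that the DMSO libraries spanned the whole DOX range. Its log2 fold change was -0.08 (SE 0.569; adjusted p = 0.999 in DESeq2), and 0.51 (SE 0.496; adjusted p = 0.863 in DESeq2) without DMSO 15. All 4 target genes thus had their highest value in DMSO 15, which was the highest library for 14.4% of all genes with a mean normalised count of at least 10. Relative to the median of the other 7 libraries, DMSO 15 was 5.65-fold higher for Ctgf, 4.32-fold for Cyr61, 3.55-fold for Amotl2 and 2.07-fold for Ankrd1.

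**Figure D2:**
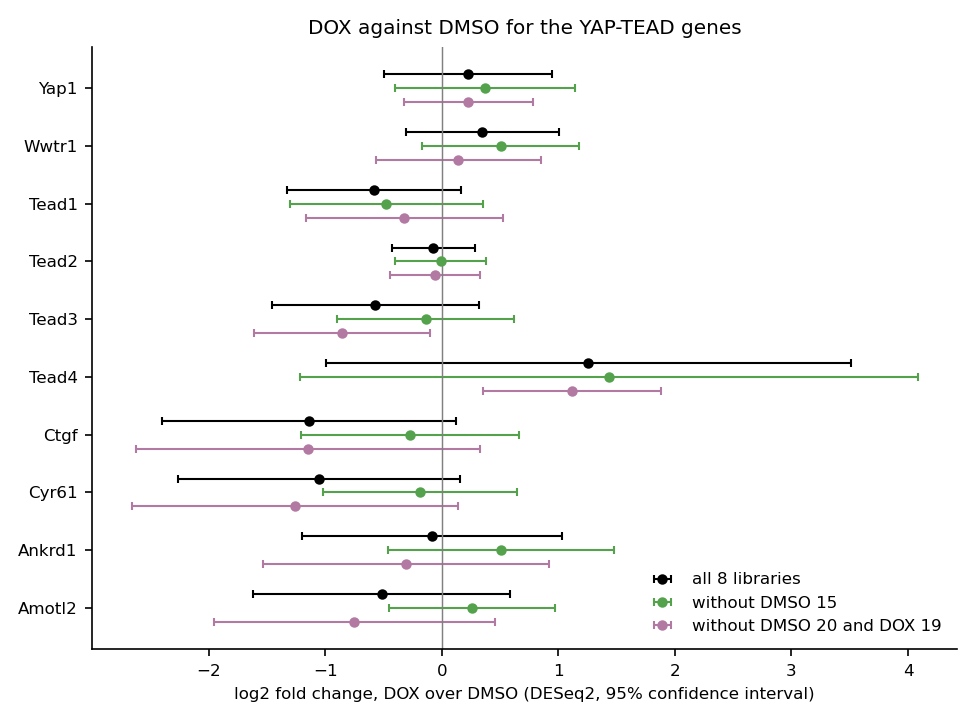
DESeq2 log2 fold change of DOX over DMSO with its 95% confidence interval for the 10 genes, from all 8 libraries (black), without DMSO 15 (green) and without DMSO 20 and DOX 19 (purple). Ctgf and Cyr61 move from -1.14 and -1.05 towards 0 without DMSO 15, and of the 3 settings drawn, the intervals of Tead3 and Tead4 leave out 0 in the one without DMSO 20 and DOX 19.

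TEAD factors bind the hexamer GGAATG, here searched on both strands (CATTCC on the other) in the 250 bases before the transcription start in RefSeq's promoter windows of GRCm38.p6. These cover 7 of the 10 genes with 10 windows (3 genes, Ctgf, Tead1 and Tead4, are not in that table). The hexamer was found in 8 of the 10 windows, and in 4153 of 32851 windows of all genes (12.6%). In the lists described further on it was found in 3 of 14 windows of the other published YAP targets (21.4%), in 5 of 20 of the upstream Hippo genes (25%), in 3 of 4 of the vestigial-like cofactors (75%), in 2 of 8 of the serum response factor genes (25%) and in 0 of 1 of the other CCN genes. The windows of 1 gene overlap in part, so they are not independent. Cyr61, Ankrd1, Amotl2, Yap1, Wwtr1 and Tead3 held a match and Tead2 held none. The sequences that carry the hexamer in the 3 target genes and in both coactivator genes are shown, as examples of the letters around it, and the 3 matches of Tead3 are not. The hexamer is in capitals and all run 5′ to 3′ on the strand of the gene.
Cyr61, chr3:145649986-145650235, minus strand: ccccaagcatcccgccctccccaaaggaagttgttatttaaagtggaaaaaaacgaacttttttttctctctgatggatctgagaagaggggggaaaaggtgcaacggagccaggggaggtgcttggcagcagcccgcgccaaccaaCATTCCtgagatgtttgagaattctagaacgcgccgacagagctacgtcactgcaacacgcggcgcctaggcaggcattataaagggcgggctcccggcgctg
Ankrd1 distal, chr19:36120037-36120066, minus strand: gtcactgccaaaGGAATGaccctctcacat
Ankrd1 proximal, chr19:36119950-36119979, minus strand: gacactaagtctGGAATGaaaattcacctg
Amotl2, chr9:102717727-102717756, plus strand: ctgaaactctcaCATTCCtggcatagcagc
Yap1, chr9:8004720-8004749, minus strand: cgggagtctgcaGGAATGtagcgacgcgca
Wwtr1, chr3:57576029-57576058, minus strand: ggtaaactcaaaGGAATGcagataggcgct
Counted from the transcript start of each RefSeq window, the hexamer began 103 bases upstream for Cyr61, 210 and 123 for Ankrd1, 65 for Amotl2 and 141 for Yap1. For Amotl2 and Yap1 the window's start lies inside the gene span given here, whose own end is further upstream. In GENCODE vM21 the Ankrd1 and Amotl2 stretches also lie in annotated exons and UTRs of the same genes, and the other 3 genes' stretches lie in no annotated exon. For Cyr61 this was looked up only for the 30 bases around the hexamer (chr3:145650071-145650100), not for the whole window shown. These matches are descriptions of the letters, and binding was not measured.

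The levels of the coactivators differed less between libraries than those of the targets. Yap1 (Entrez 22601, chromosome 9, 7931999 to 8004638) had normalised counts of 5185, 2343, 4881 and 3760 in DMSO 15, 20, 3 and 5, and of 6277, 4194, 2877 and 5553 in DOX 9, 21, 19 and 12. The lowest library of each group was the one with few detected genes. Its log2 fold change was 0.23 (SE 0.367; adjusted p = 0.999 in DESeq2). Wwtr1 (Entrez 97064, chromosome 3, 57455644 to 57575910) had 23940, 19370, 18400 and 11550 in the DMSO libraries in the same order, and 22150, 20520, 34250 and 16300 in the DOX libraries. DOX 19 was the highest and DMSO 5 the lowest, and the remaining values overlapped. The estimate was a log2 fold change of 0.35 (SE 0.335; adjusted p = 0.999 in DESeq2) and its interval ran from 0.81-fold to 2.01-fold.

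Tead2 (Entrez 21677, chromosome 7, 45215792 to 45233468) was the steadiest of the 10 genes, with 8161, 6087, 7403 and 7566 normalised counts in DMSO 15, 20, 3 and 5, and 6569, 7103, 5857 and 8282 in DOX 9, 21, 19 and 12. Its log2 fold change was -0.07 (SE 0.182; adjusted p = 0.999 in DESeq2), and its interval of 0.74-fold to 1.22-fold was the narrowest of the 10. Tead1 (Entrez 21676, chromosome 7, 112679356 to 112906784) had 5925, 6817, 2328 and 4551 in the DMSO libraries and 2642, 4482, 2957 and 3031 in the DOX libraries. The lowest and the highest value both came from DMSO libraries, and the log2 fold change was -0.58 (SE 0.382; adjusted p = 0.999 in DESeq2). Without DMSO 3, the lowest library, it was -0.81 (unadjusted p = 0.00554 and adjusted p = 0.517 in DESeq2). Tead3 (Entrez 21678, chromosome 17, 28331671 to 28350805) had 2327, 521.1, 1181 and 1220 in the DMSO libraries and 845.5, 727.6, 931.8 and 1029 in the DOX libraries. DMSO 15 was again highest and DMSO 20 lowest, and the log2 fold change was -0.57 (SE 0.453; adjusted p = 0.999 in DESeq2), or -0.14 without DMSO 15.

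Tead4 (Entrez 21679, chromosome 6, 128227143 to 128300813) was the least abundant member and the one with the largest estimate. It had 183.6, 0, 250.3 and 114.9 normalised counts in DMSO 15, 20, 3 and 5, and 376.1, 420, 133.1 and 382.4 in DOX 9, 21, 19 and 12. DOX 9, 21 and 12 lay above all DMSO libraries, and DOX 19 lay below DMSO 15 and DMSO 3. The 0 in DMSO 20 allows up to 3 counts by counting error alone. The log2 fold change was 1.26 (SE 1.15; adjusted p = 0.999 in DESeq2), with an interval from 0.50-fold to 11.4-fold. Without DMSO 20 and DOX 19, the libraries with few detected genes, it was 1.12 (SE 0.390; unadjusted p = 0.00411 and adjusted p = 0.261 in DESeq2). That value did not pass the threshold over all genes, and the part of low gene detection in it was not tested. On the same 3 against 3 libraries the log2 fold change of Tead3 was -0.85 (SE 0.385; unadjusted p = 0.0264 and adjusted p = 0.604 in DESeq2). Without DMSO 20 alone it was -0.84 (unadjusted p = 0.0143 and adjusted p = 0.482 in DESeq2).

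The composition of the pathway was also compared, as shares of TPM with all transcripts of a gene summed. Wwtr1 made up 79.5 ± 6.35% of the sum of Yap1 and Wwtr1 with DMSO and 80.0 ± 8.37% with DOX (SD, n = 4 each; exact permutation p = 0.943), with a range of 72.1% to 91.3% over all 8. TAZ transcripts were therefore more abundant than YAP transcripts in every library. The highest shares of Wwtr1 were in DOX 19 (91.3%) and DMSO 20 (87.9%), the libraries with few detected genes. Tead2 held 71.4% to 82.6% of the TPM of the 4 TEAD genes, with 77.2 ± 4.47% in DMSO and 80.8 ± 1.44% in DOX libraries (exact permutation p = 0.171, adjusted over the 5 shares p = 0.429). Tead1 held 11.3 ± 5.29% and 8.21 ± 1.92% (exact permutation p = 0.343), and Tead3 10.6 ± 4.55% and 8.35 ± 1.501% (exact permutation p = 0.400), both with an adjusted p of 0.5. Tead4 held 0.969 ± 0.796% in DMSO and 2.61 ± 0.939% in DOX libraries (exact permutation p = 0.0571, adjusted over the 5 shares p = 0.286). The smallest p that 4 against 4 libraries allow is 0.0286, and no share passed after adjustment. With adjustment over the 5 shares, a share that alone reached this smallest p would not have passed either. The adjusted values therefore cannot decide whether any share differed between the groups. Reads shared by isoforms appear to be counted once for each isoform, so shares of genes with unequal numbers of isoforms are approximate. With 1 transcript per gene, the Tead4 share was 1.46 ± 1.19% and 3.87 ± 1.38% (exact permutation p = 0.0571).

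**Figure D3:**
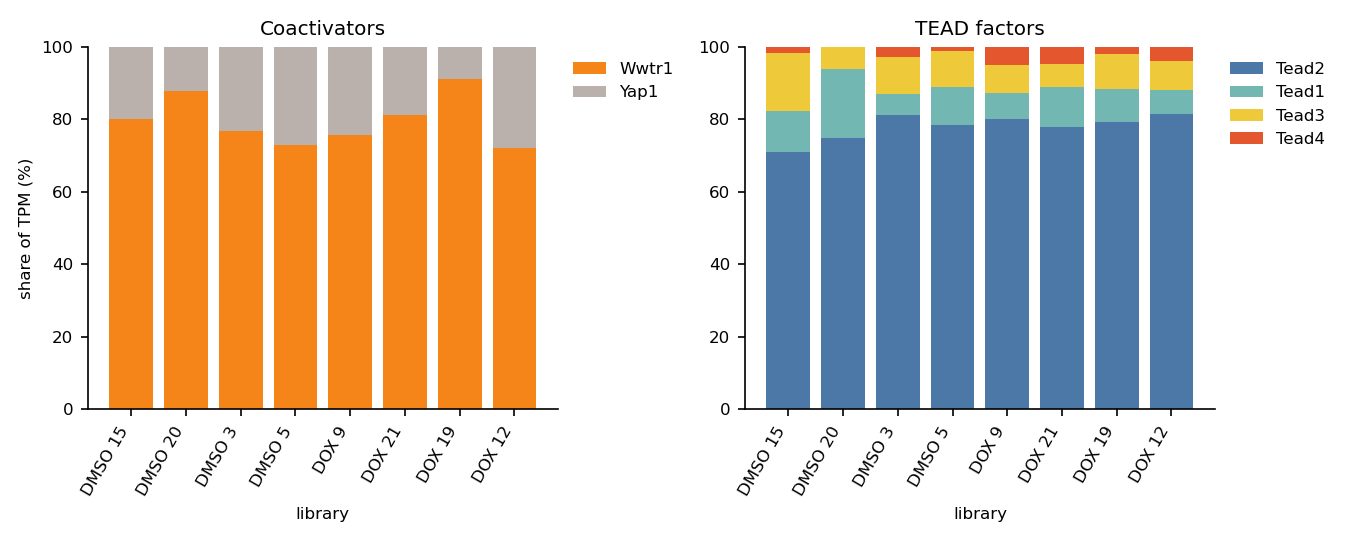
Share of TPM (%, 1 transcript per gene) held by Wwtr1 and Yap1 among the coactivators (left) and by the 4 TEAD genes (right) in each library. Wwtr1 and Tead2 hold the largest share in all 8 libraries, and Tead4 is absent from the DMSO 20 bar.

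Upstream genes of the Hippo pathway were described from a list of 22, covering the kinases Stk3, Stk4, Lats1 and Lats2, their adaptors and the angiomotins. None was called, 8 had higher and 14 lower estimates with DOX, and the median log2 fold change was -0.07. Taok3, a kinase that can activate the Hippo kinases, had 6336, 4560, 4184 and 4842 normalised counts in DMSO 15, 20, 3 and 5, and 7720, 6242, 7286 and 5482 in DOX 9, 21, 19 and 12. It was the only one of the 22 at an unadjusted p under 0.05, against 4.67% of all genes tested in DESeq2 (log2 fold change 0.42, SE 0.214; unadjusted p = 0.0479 and adjusted p = 0.943 in DESeq2). Amot, the angiomotin gene, was the only one whose groups did not overlap (1 of 22, against 2.92% of all genes with a mean normalised count of at least 10), with 813.1 to 992.3 with DMSO and 310.2 to 747.9 with DOX (log2 fold change -0.61, SE 0.328; adjusted p = 0.986 in DESeq2). Its relative Amotl1 had an estimate in the other direction (log2 fold change 0.37, SE 0.223; adjusted p = 0.999 in DESeq2), and the scaffold gene Wwc2 had -0.62 (SE 0.407; adjusted p = 0.999 in DESeq2).

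Vestigial-like proteins also bind TEAD factors and can compete with YAP. Vgll4, a repressor of TEAD-driven transcription, had 1939, 2483, 2220 and 1910 normalised counts in DMSO 15, 20, 3 and 5, and 2906, 3220, 3362 and 2643 in DOX 9, 21, 19 and 12. All 4 DOX libraries lay above all 4 DMSO libraries, for 1 of the 2 cofactors with a mean normalised count of at least 10, against 2.92% of all such genes. Its log2 fold change of 0.50 (SE 0.167) had an unadjusted p of 0.00257 in DESeq2 and of 0.0336 in edgeR, and adjusted p-values of 0.355 and 0.999, so it was not called. Vgll3 ranged from 10.1 to 2077 with DMSO and 359.1 to 556 with DOX (log2 fold change -0.64, SE 1.07; adjusted p = 0.999 in DESeq2). It too was highest in DMSO 15, and without that library the groups still overlapped and the estimate was 0.66 (adjusted p = 0.944 in DESeq2). Vgll1 had at most 6.51 normalised counts in any library, and Vgll2 had 0 in all 8.

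A list of 18 further published YAP targets, including the Hippo genes Lats2 and Ptpn14, was divided in direction. None was called, 9 had higher and 9 lower estimates, and the median log2 fold change was 0.03. Of the 18, 4 were highest in DMSO 15 (22.2%). Crim1, a transmembrane regulator of growth factors, had the smallest p (log2 fold change -0.87, SE 0.485; unadjusted p = 0.0712 and adjusted p = 0.999 in DESeq2), with 5943 and 5861 normalised counts in DMSO 15 and DMSO 20 and 1309 to 2971 in the other 6 libraries. Nuak2, a kinase gene, had a log2 fold change of -0.49 (SE 0.411). Rbms3 (0.35, SE 0.214) and Ccdc80 (0.30, SE 0.392) had higher estimates, each with a DESeq2 adjusted p of 0.999. Within the CCN family, all 3 of the other 4 genes with a mean normalised count of at least 10 had higher estimates and none was called. Of these, Nov and Wisp3 were near the floor, with at most 96.8 and 28.2 normalised counts and 0 in some libraries. Wisp1 had a log2 fold change of 0.48 (SE 0.491) and Wisp3 one of 0.64 (SE 1.54), again with a DESeq2 adjusted p of 0.999. Neither was highest in DMSO 15, though Wisp1 had 4040 normalised counts there against 4697 in DOX 19, its highest library.

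Serum response factor (SRF) and its cofactors also respond to actin tension and share some targets with YAP. Of 8 genes in this group, 7 were highest in DMSO 15 (87.5%). Acta2, smooth muscle actin, had 148000 normalised counts in DMSO 15, 25930, 16300 and 3882 in DMSO 20, 3 and 5, and 10810 to 24990 in the DOX libraries. Tagln, an actin-binding protein of smooth muscle and fibroblasts, had 128700 in DMSO 15, 24750, 9189 and 2263 in DMSO 20, 3 and 5, and 8250 to 14270 in the DOX libraries. DMSO 15 therefore stood 5.71-fold and 5.20-fold above the next library. None of the 8 was called, 7 had lower estimates and the median log2 fold change was -0.996. The estimate was -1.86 for Tagln (SE 0.946; unadjusted p = 0.0497 and adjusted p = 0.943 in DESeq2) and -1.47 for Acta2 (SE 0.889; adjusted p = 0.999 in DESeq2), and without DMSO 15 these became -0.08 and 0.19. Srf itself had a log2 fold change of 0.18 (SE 0.323).

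Markers of other cell types moved with the same library. The sum of the 8 stromal markers was 2674 TPM in DMSO 15 and 273.1 to 968.6 TPM in the other 7 libraries. Collagen I, a main product of fibroblasts, was measured through Col1a1 at 731.9 TPM in DMSO 15 and 37.1 to 178.4 TPM in the others, and Lum, a matrix proteoglycan gene, at 92.5 TPM against 0 to 47.9 TPM. Pdgfra and Pdgfrb, receptors of mesenchymal cells, were not highest in DMSO 15 (12.2 and 163.3 TPM, within ranges of 0.149 to 37.2 and 78.8 to 313.3 TPM). The sum of the 6 epithelial markers was lowest in DMSO 15, at 472.4 TPM against 567 to 1783 TPM. Cdh1 (E-cadherin) had 15.2 TPM there against 26.9 to 96.9 TPM. Tjp1 was not lowest in DMSO 15 (36.9 TPM, within a range of 17.4 to 66.4 TPM). Between the groups the stromal sums were 273.1 to 2674 TPM in DMSO and 509.6 to 886 TPM in DOX libraries (exact permutation p = 0.714), and the epithelial sums 472.4 to 1783 and 567 to 1201 TPM (exact permutation p = 0.629). The part of the cell mix in the values of the target genes was not tested. In such bulk samples, fewer cells of a type and less RNA per cell cannot be told apart. The summed endothelial markers ranged from 22.2 to 161 TPM, almost all of it Emcn, the macrophage markers from 0.0068 to 28.7 TPM and the podocyte markers from 26.6 to 252.4 TPM, the last being highest in DOX 21.

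**Figure D4:**
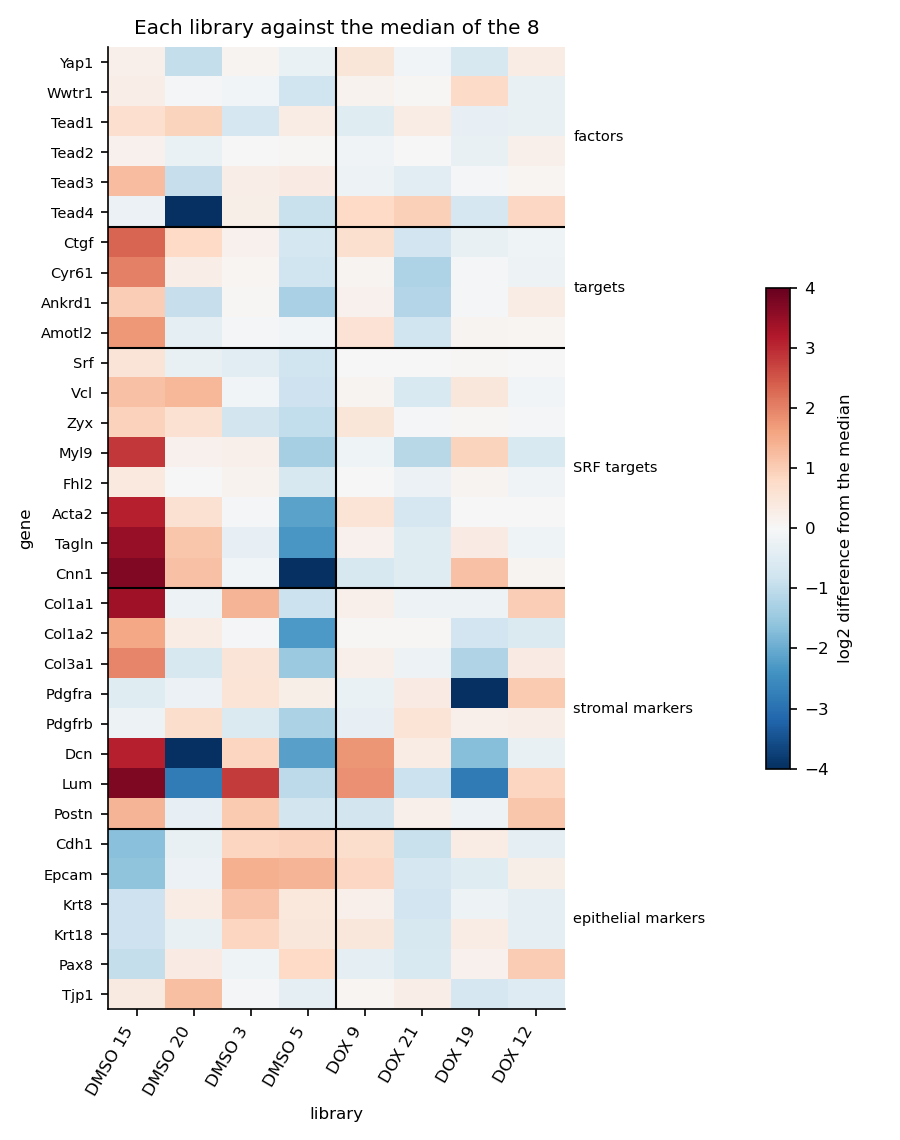
Difference of each library (columns) from the median of the 8 libraries for each gene (rows), on the log2(value + 1) scale, from normalised counts for the factors, targets and SRF targets and from TPM for the markers. Colours are limited to differences of 4 either way. In DMSO 15 all 4 targets, 7 of 8 SRF genes and the collagens are at their highest, and 5 of 6 epithelial markers at their lowest.

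How closely the 4 targets followed each other across libraries was measured by correlation. Because DMSO 20 and DOX 19 stand apart in gene detection, relations were computed over the other 6 libraries, on log2(normalised count + 1), for 6 pairs. For Ctgf and Cyr61 Pearson's r was 0.98 (exact permutation p = 0.00139, adjusted over the 6 pairs p = 0.00833) and Spearman's coefficient was 1 (exact permutation p = 0.00278, adjusted p = 0.0167). Leaving out DMSO 15 and DOX 21, the libraries farthest from the median, gave r = 0.93 over the remaining 4. Ctgf and Amotl2 had r = 0.96 (exact permutation p = 0.00556) and a Spearman coefficient of 0.94 (exact permutation p = 0.0167), and Cyr61 and Amotl2 had r = 0.96 (exact permutation p = 0.00694) with the same Spearman coefficient. The adjusted p was 0.0139 for both r and 0.0333 for both Spearman coefficients. The latter pair had r = 0.55 without DMSO 15 and DOX 21, so it rests mostly on those libraries. For Ankrd1, r was 0.86 with Ctgf, 0.89 with Cyr61 and 0.82 with Amotl2 (exact permutation p = 0.0194, 0.0153 and 0.0375), while Spearman's coefficient was 0.77, 0.77 and 0.89 (exact permutation p = 0.103, 0.103 and 0.0333). The adjusted p was at most 0.0375 for these r. Without DMSO 15 and DOX 21, r was 0.79 for Ctgf and Amotl2, 0.76 for Ctgf and Ankrd1 and 0.90 for Cyr61 and Ankrd1, each over 4 libraries. For Ankrd1 and Amotl2 the libraries farthest from the median were DMSO 5 and DOX 21. Without these r was 0.93 over 4 libraries, which still include DMSO 15. Over all 8 libraries Spearman's coefficient was 0.98 for Ctgf and Cyr61 (exact permutation p = 0.000397) and 0.81 for Ankrd1 and Amotl2 (exact permutation p = 0.0218), with adjusted p of 0.00238 and 0.0653. It was 0.67 for Ctgf and Ankrd1, 0.60 for Cyr61 and Ankrd1, 0.57 for Cyr61 and Amotl2 and 0.55 for Ctgf and Amotl2 (exact permutation p = 0.0831, 0.132, 0.151 and 0.171). For Cyr61 and Amotl2, r over these 8 libraries was 0.89, and 0.0533 without DMSO 15 and DOX 21. For Cyr61 and Ankrd1 it was 0.79, and 0.48 without the same libraries. Each group holds only 3 of the 6 libraries, too few for values within a group.

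Among 13247 genes with a mean normalised count of at least 100, those most like Ctgf over all 8 libraries were Rnd3 (r = 0.97), Cyr61 (0.96), Tpm1 (0.95), Foxk2 (0.95) and Crabp2 (0.94). Tpm1 encodes a tropomyosin of actin filaments. Those most like Cyr61 were Steap2 (r = 0.96), Ctgf (0.96), Thbs1 (0.96), Tpm1 (0.95) and Rftn1 (0.95), of which Thbs1 encodes the matricellular protein thrombospondin. Over the 6 libraries without DMSO 20 and DOX 19, Cyr61 and Thbs1 had r = 0.99 and Ctgf and Rnd3 r = 0.99. All of these genes were highest in DMSO 15, and the points share the same libraries, so these values describe the 8 libraries only.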

How the data were processed

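SMART-Seq v4 libraries with poly-A selection were sequenced in pairs of reads by the study. Its labels and methods name STAR, featureCounts and DESeq2 and the build mm10 (GRCm38), without versions; counting settings were not given in the sources used here. The authors deposited whole-number counts per RefSeq transcript, together with FPKM and TPM values that they had scaled by transcript length and library total. Deposited counts were summed by symbol for all tests, the deposited TPM was summed or taken from the transcript with the highest mean count for levels and shares, and the deposited FPKM served only to check the TPM. The 2 Yap1 transcripts had mean counts of 2358.5 and 2357, so reads of shared exons appear to be counted for each isoform, and sums overstate reads. With 1 transcript per gene, totals were 39252852 to 64561676.

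DOX was compared with DMSO over all genes with DESeq2 1.42.0 (Wald test, R 4.3.3), the study's tool (size factors by median of ratios, no covariate, independent filtering at alpha 0.1, unshrunken changes), with Benjamini-Hochberg adjustment over all genes. The edgeR 4.0.16 quasi-likelihood test was run beside it, on genes passing its count filter. Shares and single values were compared by exact two-sided permutation over the 70 assignments of libraries. The tests were checked on simulated data. No pairing of cultures was given, and library numbers are not shared between groups, so the comparison was unpaired. Whether DMSO and DOX cultures shared a preparation is not known. Libraries ran on 2 flow cell lanes of 4 whose membership was not given, so lane was not tested. The 10 genes and the other lists were chosen with earlier results of these data known. From each list, the text names called genes and the 2 higher and 2 lower genes with the smallest p among those with a mean normalised count of at least 10; Amot, Taok3 and Vgll4 fall under this rule. Genes like Ctgf and Cyr61 are the 5 with the highest Pearson correlation. Gene positions are RefSeq's on GRCm38.p6. Alternatives were edgeR, limma-voom (limma 3.58.1), TMM scaling, 2 count filters, the Cook distance filter and independent filtering off, 1 transcript per gene, other thresholds, 3 against 3 libraries and leaving out each library. How reads shared by paralogs were counted was not given.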

Additional observations from a re-analysis of the deposited data

Results flagged for a closer look

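The log2 normalised counts of the 10 genes, the 5 shares and the summed levels of 5 marker lists were examined in each group. Of these 40 groups of 4 libraries, 3 held a library standing apart by Dixon's test at the 95% level, in which the gap to the nearest library is divided by the range, where chance gives about 2. Amotl2 was far higher in DMSO 15 than in the other DMSO libraries, with a log2 normalised count of 13.2 against 11.06 to 11.37 (gap 0.855 of the range). Tead4 was lowest in DMSO 20, at 0 against 6.86 to 7.97 (gap 0.860). It was also lowest in DOX 19 among the DOX libraries, at 7.07 against 8.56 to 8.72 (gap 0.904). DMSO 20 and DOX 19 are the libraries with few detected genes, and the part of that in the Tead4 values was not tested.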

How the results depend on the processing

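None of the 10 genes was called under any alternative (smallest adjusted p 0.261, for Tead4 on 3 against 3 libraries). Over all genes, against 25 calls in DESeq2, edgeR and limma-voom made 0 calls each (476 and 478 genes at an unadjusted p under 0.05), at least 10 counts in every library gave 16, the Cook distance filter off 48, 3 against 3 libraries 51 and a threshold of 0.1 on the adjusted p gave 40. Leaving out 1 library gave 14 to 75 calls (14 without DMSO 3, 38 without DOX 21, 48 without DMSO 20, 75 without DMSO 15). Log2 fold changes that changed direction, none of them called, were Ankrd1 with limma-voom (0.11) and from -0.34 to 0.51 when 1 library was left out, Amotl2 (-0.74 to 0.26), Tead2 (-0.17 to 0.0089), Acta2 (-1.85 to 0.19), Vgll3 with limma-voom (1.18) and from -1.05 to 0.66, and Wisp3 on 3 against 3 libraries (-0.56) and from -0.17 to 1.18. The DOX minus DMSO difference in the Wwtr1 share was 0.55 percentage points, -0.40 on 3 against 3 libraries, and -3.20 to 3.35 when 1 library was left out. The cause was not tested. Of the results for the 10 genes, 88 of 89 kept direction and side of the threshold, as did 76 of 80 with 1 library left out; for 16 other named genes these were 141 of 143 and 125 of 128. Tead4 ranged from 0.84 to 2.73 over the alternatives. The correlation of Ctgf with Ankrd1 over all 8 libraries was 0.69 (exact permutation p = 0.0504). The common biological coefficient of variation between cultures was 0.766 in edgeR; depth was not varied. No paired analysis was made because no pairing of cultures was given.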
